A study of Mus musculus with 12 samples.

Results

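Kcnq1ot1 and Cdkn1c lie in one imprinted domain of mouse chromosome 7, and the methylation of both was followed through 12 libraries. Of 8119606 cytosines listed in build mm9, 74 lie in the Kcnq1ot1 control region (chr7:150481000-150482500) and 488 in a window over Cdkn1c (chr7:150644000-150648000). The windows were set by position, with earlier results of these data known. In them, 35 of the 74 and 257 of the 488 cytosines reached 20% methylation in at least 1 library. Those 35 and 257 cytosines gave the window means.

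Kcnq1ot1 is a long noncoding RNA transcribed from inside Kcnq1, a potassium channel gene, against the direction of that gene. Its start lies in a CpG-rich control region that carries methylation from the egg, and the RNA is made from the unmethylated paternal copy, where it silences neighbouring genes. Cdkn1c, which encodes the cell cycle inhibitor p57Kip2, is one of those neighbours. It is expressed mainly from the maternal copy, and in mouse its paternal copy becomes methylated during development, after fertilization.

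Reduced representation bisulfite sequencing (RRBS) reads CpG-rich DNA cut by the enzyme MspI at CCGG and reports the percentage of reads in which a cytosine was methylated. The brain libraries were bimaternal (BM) adult, BM at embryonic day E19.5 and wild-type (WT) adult. The whole embryos, all at E15.5, were BM, bipaternal (BP) and WT. Androgenetic haploid embryonic stem cells (ahESC, paternal genome), parthenogenetic haploid embryonic stem cells (phESC, maternal genome) and diploid embryonic stem cells (ESC), all labelled WT, were each sampled at late and early passage.

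Per the design notes, BM embryos came from a phESC injected into an oocyte, and BP embryos from an ahESC and a sperm placed together in an oocyte without its nucleus. The BM and BP samples carry the label DMR-KO, a deletion of differentially methylated regions, and the labels used here do not say which regions. A value in a deleted region would come from the remaining copy alone. Strain, animal numbers and pooling are not given in the sources used here.

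Each group has 1 library, so replicate error is unknown and no difference was tested. SDs below are spreads over cytosines within 1 library. A difference of at least 25 percentage points was called higher or lower, and the share of all other genomic windows of that length that passed 25 points the same way is given beside it. The read depth behind each percentage is unknown. Between 3773871 cytosines (BP embryo) and 5903648 cytosines (WT adult brain) had a value. The late ahESC, late phESC, BM adult brain and WT adult brain libraries stand apart in the sites they cover, with 2209 to 7697 values on unplaced chromosome Y sequence, where the other 8 libraries had 0. Comparisons between late and early haploid cells, or of an adult brain with an earlier stage, cross that split, which cannot be told apart from the groups there.

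The methylated cytosines of the Kcnq1ot1 window sit in a pair of short stretches between MspI sites. Both lie inside the transcribed sequence, about 1006 and 1140 bases after the start, which was placed at position 150482454 on the minus strand, between exons 11 and 12 of the 16 exons of Kcnq1. They are shown because nearly all values of the window come from them and because the WT embryo differs between them. For Cdkn1c a coding stretch of exon 2 is shown, in which every inner CpG had a value on both strands in all 12 libraries. Sequences are the plus strand, 5′ to 3′, from the GENCODE M21 transcripts (GRCm38), placed on mm9 by the pattern of listed positions. Capitals mark CpGs.
Kcnq1ot1 69-base stretch, chr7:150481280-150481348: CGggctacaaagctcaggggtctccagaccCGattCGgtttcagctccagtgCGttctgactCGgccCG
Kcnq1ot1 150-base stretch, chr7:150481374-150481523: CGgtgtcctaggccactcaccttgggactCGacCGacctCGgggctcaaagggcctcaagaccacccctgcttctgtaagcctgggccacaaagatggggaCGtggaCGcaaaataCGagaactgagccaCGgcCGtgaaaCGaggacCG
Cdkn1c 80-base stretch, chr7:150645968-150646047: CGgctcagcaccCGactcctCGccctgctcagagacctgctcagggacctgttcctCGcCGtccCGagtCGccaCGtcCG

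The 69-base stretch holds 6 CpGs, the 150-base stretch 11 and the Cdkn1c stretch 9. The first and last CpG of each belong to the MspI sites. The letters TGCCGC, the motif of the imprint-keeping zinc finger protein ZFP57, occur in none of the 3 stretches on either strand. They occur 3 times in the 1455 bases of the window that lie inside the transcript, which hold 93 CpGs. Of 24573 genes with a transcript of that length, 35.1% hold TGCCGC at least once in the first 1455 bases and 4.12% hold it at least 3 times. TGCCGC itself holds a CpG, and those transcripts were not matched for CpG content, so the shares do not show an enrichment. The search describes letters only.

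All 35 cytosines of the Kcnq1ot1 window that reached 20% were CpGs. The window also lists 33 cytosines of GpC outside CpG, and 0 of them reached 20%. Their means lay between 0% (BP embryo) and 1.07% (late ahESCs), a level that sets how low an unmethylated cytosine read in these libraries. In the Cdkn1c window the sequence context could be found for 299 of 488 cytosines. Of these, 160 CpG cytosines and 0 of 131 GpC cytosines reached 20%, and the other 97 that reached 20% are of unknown context.

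The Kcnq1ot1 control region carried intermediate methylation in brains, in the BM embryo and in early diploid ESCs, and was close to 0 in all 4 haploid libraries, in late diploid ESCs and in the BP embryo. In brains its mean was 54.3% ± 16.0 in the BM adult (SD over 31 cytosines), 63.6% ± 5.66 in BM at E19.5 (29 cytosines) and 50.4% ± 13.7 in the WT adult (35 cytosines). In E15.5 embryos it was 60.7% ± 9.98 in BM (29 cytosines), 1.28% ± 2.37 in BP (15 cytosines) and 25.3% ± 19.9 in WT (30 cytosines). In stem cells it was 3.04% in late and 1.02% in early ahESCs, 4.54% in late and 1.22% in early phESCs, and 1.11% in late and 50.6% ± 3.18 in early diploid ESCs. The libraries fall into a low set of 6 and a high set of 5, with the WT embryo between them.

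In the order of levels, BM E19.5 brain and BM embryo differed by 2.95 points, and BM adult brain, early ESC and WT adult brain lay within 3.95 points of each other. With 1 library each, this order was not tested, and the SD over cytosines does not give the error of a library mean. The 6 low libraries ran from 1.02% to 4.54%.

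**Figure D1:**
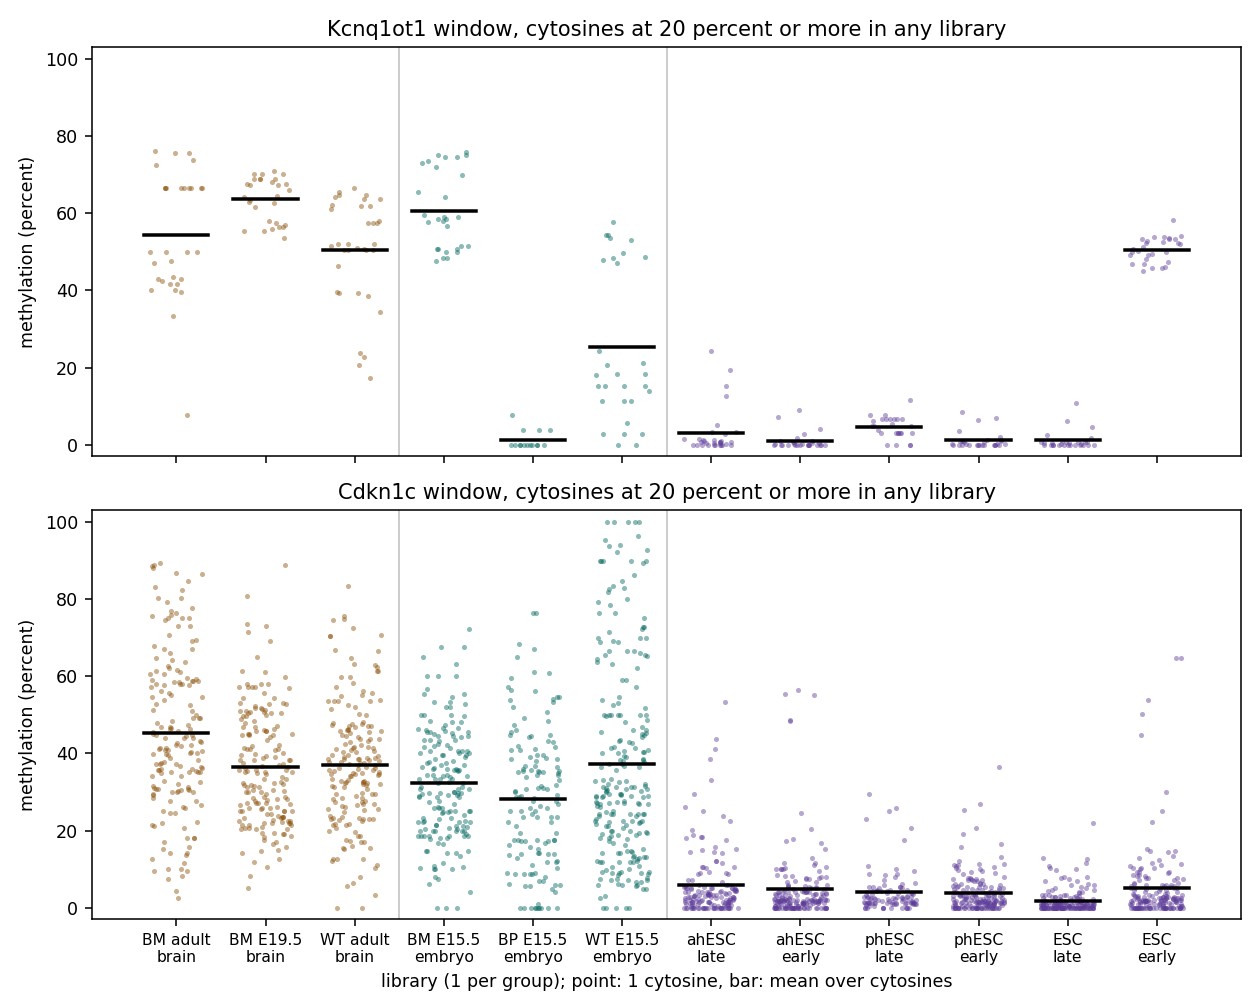
Methylation percent (y axis) of each cytosine that reached 20% in any library, for the Kcnq1ot1 window (top) and the Cdkn1c window (bottom), by library (x axis), with 1 library per group; points are cytosines and black bars their means. The Kcnq1ot1 bars lie between 50.4% and 63.6% in brains, the BM embryo and early ESCs, at 25.3% in the WT embryo and at 1.02% to 4.54% elsewhere; the Cdkn1c bars lie between 28.2% and 45.2% in all embryos and brains and between 1.83% and 5.98% in all stem cells.

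Early ahESCs were lower than early diploid ESCs at all 29 cytosines both measured, with 1.02% and 50.6%, a difference of -49.6 points. A fall of that kind was rare in the genome, since only 0.372% of other windows were lower by 25 points. Early phESCs, whose genome is maternal, were also lower at all 29 cytosines, with 1.22% in phESCs and 50.6% in early diploid ESCs, a difference of -49.4 points. There the background was 52.8% of other windows, so the call by itself does not set the region apart. The level of the region in early phESCs lay below the median of the other domain tiles, which was 37.4%. Low tiles also occurred elsewhere, since the lowest of those tiles had 3.91% and the lowest Cdkn1c tile 2.57%.

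Late diploid ESCs had 1.11% and early diploid ESCs 50.6%, a difference of -49.5 points with all 29 cytosines lower. In that comparison 73.4% of other windows were lower by 25 points. Late ahESCs had 3.04% and early ahESCs 1.02% (+2.02 points), and late phESCs had 4.54% and early phESCs 1.22% (+3.32 points), neither of which passed 25 points. In late ahESCs the excess sat at the MspI ends. There the 4 end cytosines that reached 20% in other libraries and were measured in both passages read 12.6% to 24.3% in late ahESCs and 2.69% to 8.88% in early ahESCs, while the inner CpGs averaged 0.675% in late and 0.259% in early ahESCs. In late phESCs no MspI end had a value, and 21 of 25 shared inner cytosines were higher than in early phESCs. Many of the late phESC values repeat exactly along a strand. Examples are 6.67% on the plus strand and 2.94% on the minus strand of the longer stretch. The 21 cytosines are thus not separate observations, and no late phESC value was above 11.5%.

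Among the embryos, BM had 60.7% and BP 1.28% at the Kcnq1ot1 region, a difference of +59.4 points, with all 15 shared cytosines higher in BM. Of other windows, 0.888% were higher in BM by 25 points. BM had 60.7% and WT 25.3%, a difference of +35.4 points with all 29 shared cytosines higher in BM, against 1.34% of other windows. BP had 1.28% and WT 25.3%, a difference of -24.0 points that missed 25 points. Over the 15 cytosines measured in both, BP had 1.28% and WT 35.3%, a difference of -34.0 points.

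The WT embryo value depends on which stretch is read. Over the inner CpGs of the 69-base stretch, the mean was 58.4% in BM, 0.962% in BP and 50.9% in the WT embryo (8 cytosines each). Over those of the 150-base stretch, it was 61.0% in BM (17 cytosines), 0% in BP (5 cytosines, plus strand alone) and 11.7% in WT (17 cytosines). BM and WT embryos thus differed by +7.44 points in the first and by +49.3 points in the second, and the window call between them rests on the 150-base stretch.

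In no other library did the stretches differ by as much. Early diploid ESCs had 51.0% in the 69-base and 49.6% in the 150-base stretch, the BM E19.5 brain 65.1% and 62.1%, the BM adult brain 59.1% and 58.7%, and the WT adult brain 48.4% and 57.6%. The low libraries were low in both, at 0.284% to 2.98% in the 69-base and 0% to 5.23% in the 150-base stretch. The WT adult brain differed from the WT embryo by -2.55 points in the 69-base stretch and by +45.9 points in the 150-base stretch. Over the whole window that comparison gave 50.4% in the WT adult brain and 25.3% in the WT embryo, a call of +25.1 points that 2.93% of other windows shared. Likewise the WT embryo and early ESCs had 50.9% and 51.0% in the 69-base stretch, but 11.7% and 49.6% in the 150-base stretch. Their whole-window difference of -25.3 points was a call that 4.94% of other windows shared. Over the 29 cytosines measured in both libraries it was -24.4 points, short of a call.

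Within 1 strand of 1 stretch, neighbouring CpGs mostly gave nearly the same percentage, and the strands of a stretch often did not. The plus strand of the 150-base stretch in the WT embryo was an exception, running from 0% to 11.4%. In the 150-base stretch of the BM embryo the plus strand averaged 73.6% ± 1.97 (8 cytosines) and the minus strand 49.8% ± 1.38 (9 cytosines). In the 69-base stretch of the BM adult brain the plus strand averaged 42.9% ± 0.479 and the minus strand 75.3% ± 0.988 (4 cytosines each). In the 150-base stretch of that library, all 9 plus-strand cytosines were listed at exactly 66.7%. Early ESCs had 47.6% on the plus and 52.2% on the minus strand over 12 CpGs, and a mean absolute difference of 4.59 points per CpG. The WT embryo step between the stretches was seen on both strands, since the 150-base stretch averaged 6.07% on the plus and 16.7% on the minus strand, and the 69-base stretch 48.0% on the plus and 53.8% on the minus strand. Over the CpGs measured on both strands, the mean absolute difference between strands ran from 0.374 points in late ESCs to 23.2 points in the BM adult brain.

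**Figure D2:**
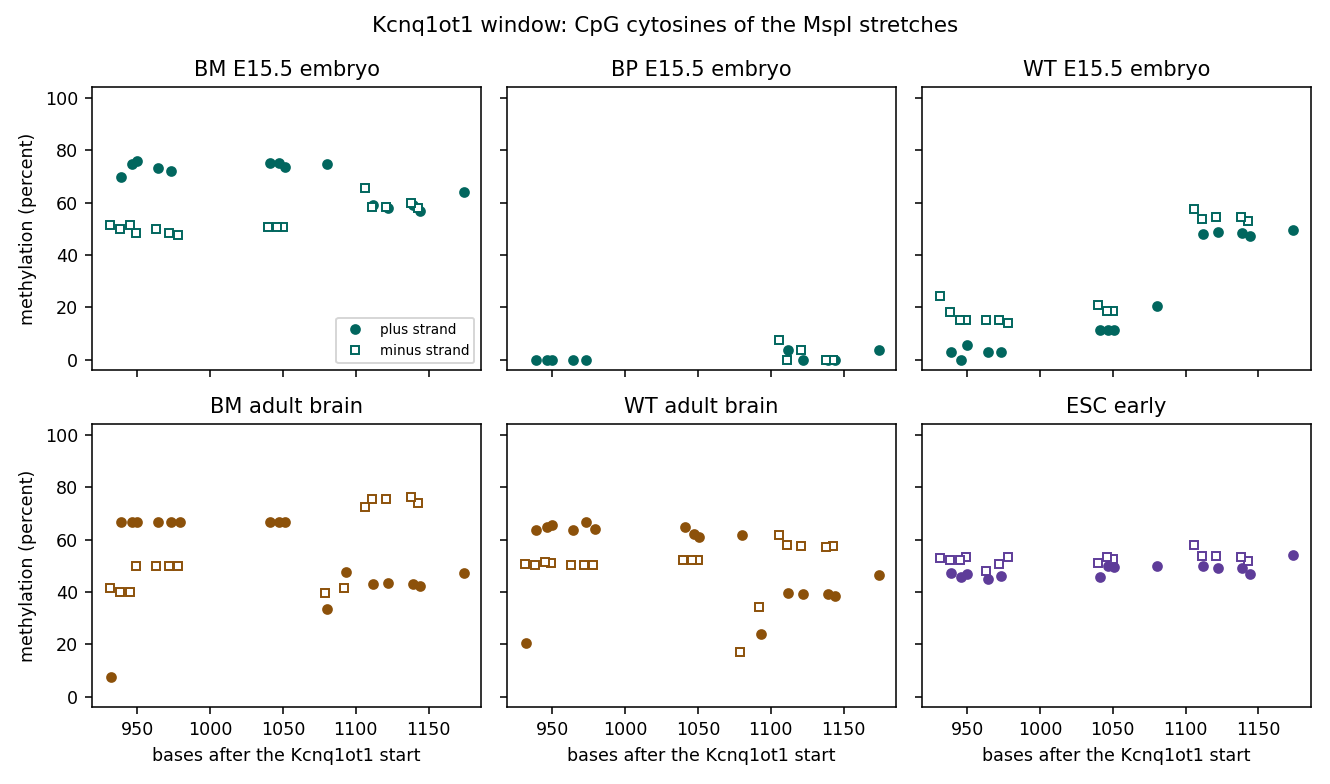
Methylation percent (y axis) of CpG cytosines in the Kcnq1ot1 window against their distance in bases after the Kcnq1ot1 start (x axis), for 6 libraries; filled circles are plus-strand and open squares minus-strand cytosines. In the WT E15.5 embryo the 69-base stretch (right) averages 50.9% and the 150-base stretch (left) 11.7%, whereas the BM embryo (58.4% and 61.0%) and early ESCs (51.0% and 49.6%) are high in both and the BP embryo is low in both.

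Brains of different parental make-up were close to each other at the Kcnq1ot1 region. The BM adult brain had 54.3% and the WT adult brain 50.4%, a difference of +3.95 points, with 22 of 31 shared cytosines higher in BM. The BM adult brain had 54.3% and the BM E19.5 brain 63.6% (-9.31 points), and the BM E19.5 brain had 63.6% and the BM E15.5 embryo 60.7% (+2.95 points). None of these 3 differences passed 25 points. For BM against WT adult brain, only 0.039% of other windows were called higher and 0.118% lower, so closeness there does not set the region apart.

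The embryos can also be set beside the haploid cell types that the design notes name as their source, although the labels do not tie an embryo to a sampled cell line. The BM embryo had 60.7% and early phESCs 1.22%, a difference of +59.5 points with all 29 cytosines higher, against a background of 65.1%. The BP embryo had 1.28% and early ahESCs 1.02%, a difference of +0.266 points. Kcnq1ot1 was thus low in both libraries of the paternal pair and differed in the maternal pair.

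Close to the start of Kcnq1ot1, between the 150-base stretch and the promoter, 841 bases with 54 inner CpGs had no value in any library. Next to the start, 5 CpG cytosines lying 23 to 93 bases after it had values in 3 libraries. They read 0% at all 5 in early phESCs and 0% to 6.67% at 4 in the WT embryo, and 22.7% at 1 in the WT adult brain. That 1 cytosine entered the window mean, and the other window values come from the stretches above and the short piece between them.

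At Cdkn1c the 6 embryo and brain libraries were all higher than the 6 stem cell libraries. The mean was 45.2% ± 20.3 in the BM adult brain (SD over 175 cytosines), 36.5% ± 15.0 in the BM E19.5 brain (177 cytosines) and 37.0% ± 15.9 in the WT adult brain (179 cytosines). In E15.5 embryos it was 32.2% ± 14.4 in BM (177 cytosines), 28.2% ± 18.1 in BP (140 cytosines) and 37.4% ± 26.0 in WT (238 cytosines). In stem cells it was 5.98% in late and 4.83% in early ahESCs, 4.04% in late and 3.91% in early phESCs, and 1.83% in late and 5.18% in early diploid ESCs. With the known MspI ends left out, the order of the ahESC passages turned, with 3.51% in late and 4.28% in early ahESCs. The lowest of the embryo and brain means (28.2%) thus lay above the highest stem cell mean (5.98%). Most cytosines that entered these means reached 20% in embryos or brains but not in stem cells. The size of the gap therefore depends in part on that cutoff. Over all listed cytosines, means ran from 16.2% to 26.9% in embryos and brains and from 1.22% to 3.99% in stem cells. None of the comparisons made among embryos and brains, or among stem cells, passed 25 points.

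The WT embryo and early diploid ESCs had 37.4% and 5.18%, a difference of +32.2 points, and 12.8% of other windows of this length were as much higher. Over the 177 cytosines measured in both, the WT embryo had 25.8% and early ESCs 5.18% (+20.6 points), below 25 points. The BM embryo and early phESCs had 32.2% and 3.91%, a difference of +28.3 points, with 174 of 177 cytosines higher, against a background of 64.8%. The BP embryo and early ahESCs had 28.2% and 4.83%, a difference of +23.3 points that was not called. With 12.8% and 64.8% of other windows passing 25 points, neither call sets Cdkn1c apart from much of the genome.

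Parental make-up of the embryo was not accompanied by a called difference at Cdkn1c. BM had 32.2% and WT 37.4% (-5.14 points), BP had 28.2% and WT 37.4% (-9.22 points), and BM had 32.2% and BP 28.2% (+4.08 points). Of other windows, 1.19% were called higher and 0.0766% lower in BM than in WT. For BP against WT the shares were 1.14% and 0.24%, and for BM against BP 0.831% and 0.218%. Most other windows were thus not called either, and the lack of a call does not set Cdkn1c apart. Over cytosines measured in both libraries, BM had 32.2% and WT 25.8% (+6.45 points, 177 cytosines), and BP had 28.2% and WT 26.7% (+1.48 points, 140 cytosines). The sign against WT therefore turned with the cytosines used. At 61 cytosines, 45 of them in exon 2, the WT embryo had a value and the BM embryo had none, and there the WT embryo averaged 71.0%. Of the 61, 19 reached 20% in the WT embryo alone and so entered the window only through that library (77.1% on average), 13 of them with no value in any other library. The other 42 reached 20% elsewhere too and averaged 68.2% in the WT embryo. At 46 of those 61 the WT adult brain had a value too, with 29.8% in the adult brain and 69.6% in the WT embryo. At 44 of them the BM adult brain had 36.6% and the WT embryo 68.7%, and at 30 of them late ahESCs had 7.46% and the WT embryo 72.6%. No other library had a value at the 61. Both adult brains and late ahESCs stand apart in covered sites, a split that cannot be told apart from the groups here. Some of the 61 were MspI ends. At 150645944 the WT embryo had 92.9% and the WT adult brain 12.6%, and on the other strand (150645945) 82.6% and 51.5%.

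In the adult, BM brain had 45.2% and WT brain 37.0% at Cdkn1c (+8.17 points), with 127 of 173 shared cytosines higher in BM. The BM adult brain had 45.2% and the BM E19.5 brain 36.5% (+8.75 points). Neither passed 25 points, and the SD over cytosines does not give the error of such a difference. Of other windows, 0.0556% were called higher and 0.189% lower in the BM than in the WT adult brain. For the BM adult against the BM E19.5 brain the shares were 0.529% and 10.8%.

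Along the gene, the 3′ end stood apart from the rest of the window in stem cells. The 5 or 6 cytosines of exon 4, a noncoding exon in the 3′ untranslated region, averaged 11.2% in late and 52.8% in early ahESCs, 23.6% in late and 25.7% in early phESCs, and 11.8% in late and 55.7% in early diploid ESCs. In embryos they averaged 67.1% in BM, 65.5% in BP and 64.3% in WT, and in brains 61.5% to 77.6%. Among the early stem cells, exon 4 was methylated in ahESCs and diploid ESCs, and lower in phESCs. The raised level ran past the exon into intron 3, where the 4 nearest cytosines (150644961 to 150644973) read 16.9% to 24.6% in early ahESCs, 5.76% to 10.7% in early phESCs and 14.3% to 30.1% in early diploid ESCs. The next 7 cytosines of that intron read at most 7.41% in these 3 libraries. Lower levels in phESCs, and in late ahESCs and late diploid ESCs, were common in the genome. Of other windows of the Cdkn1c length, 52% were lower by 25 points in early phESCs than in early diploid ESCs. Against early ahESCs, 44.4% were. From early to late passage, 74% were lower in diploid ESCs, 61.2% in ahESCs and 6.42% in phESCs. The lower levels thus do not by themselves set exon 4 apart.

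Exon 2, which carries most of the coding sequence, averaged 38.1% ± 10.1 in the BM embryo, 39.1% ± 12.6 in the BP embryo and 51.5% ± 23.2 in the WT embryo, the last over 107 cytosines and the others over 62. It averaged 50.4% in the BM adult brain, 44.5% in the BM E19.5 brain, 41.7% in the WT adult brain and 2.18% to 6.46% in stem cells. Intron 2 was lower in every embryo and brain library, with 23.9% in BM, 16.2% in BP and 23.5% in WT embryos and 27.0% to 35.2% in brains. In the printed 80-base stretch of exon 2, where all libraries were measured at the same 14 cytosines, BM had 43.0% ± 9.10, BP 38.5% ± 12.3 and WT 36.8% ± 9.63 among the embryos. The brains had 67.2% ± 17.0 in the BM adult, 43.3% ± 8.10 in BM at E19.5 and 49.8% ± 12.6 in the WT adult, and the stem cells 1.76% to 5.47%. In that stretch the BM adult brain read 52.1% on the plus and 82.3% on the minus strand, and the WT adult brain 39.4% on the plus and 60.1% on the minus strand.

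The promoter end of Cdkn1c was measured in 7 of 12 libraries. Exon 1 averaged 41.8% ± 10.5 in the BM embryo and 35.1% ± 14.5 in the WT embryo, and 42.4% ± 12.1 in the BM E19.5 brain (11 cytosines each). It averaged 1.42% in early ahESCs, 1.01% in early phESCs, 0.699% in late ESCs and 0.427% in early ESCs. The sequence upstream of the start averaged 35.6% ± 16.4 in the BM embryo, 24.8% ± 12.2 in the WT embryo and 31.1% ± 9.72 in the BM E19.5 brain, against 1.26% to 2.75% in those stem cells. Exon 1 and the upstream sequence were thus methylated in these embryos and the BM E19.5 brain, and low in these stem cells.

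**Figure D3:**
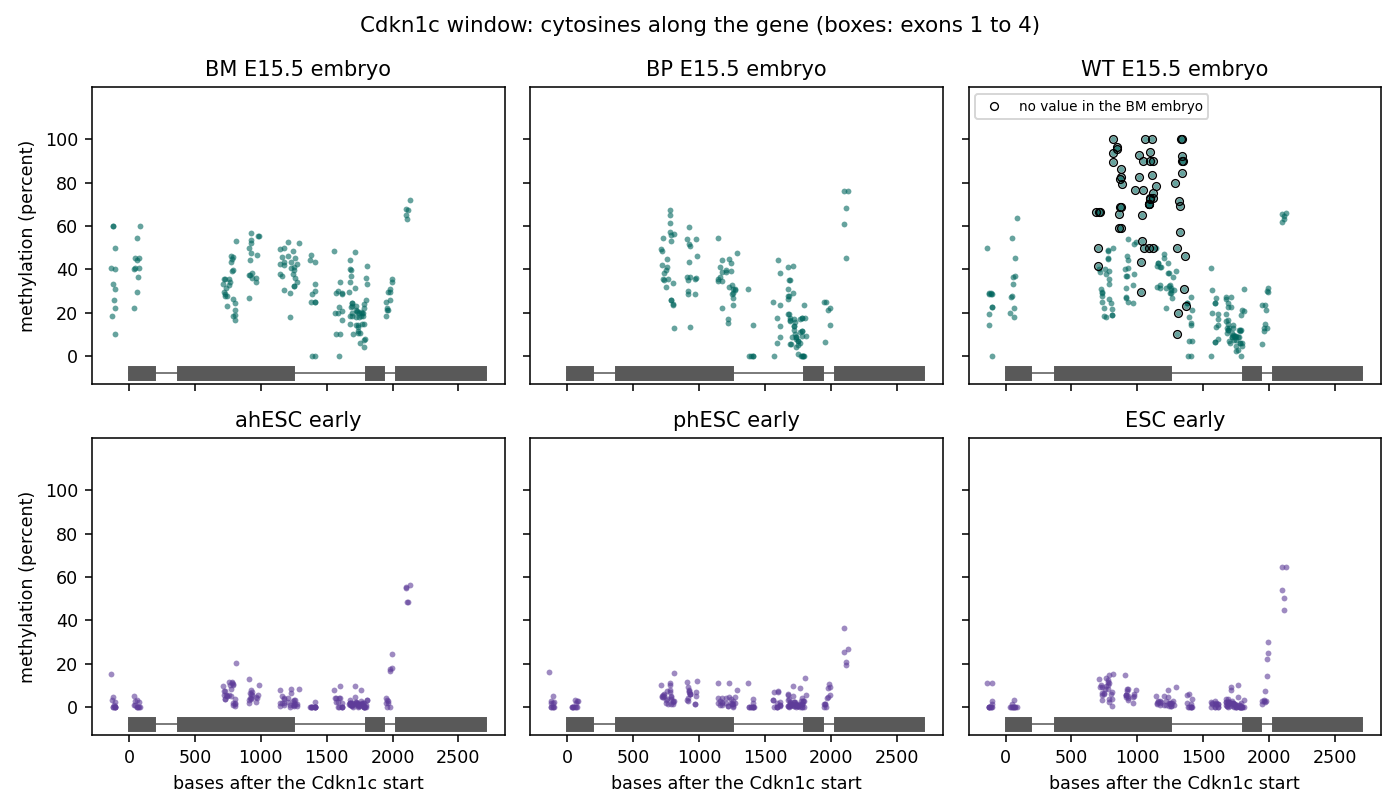
Methylation percent (y axis) of cytosines of the Cdkn1c window against their distance in bases after the Cdkn1c start (x axis), in the 3 E15.5 embryos (top) and in 3 early-passage stem cell libraries (bottom); grey boxes are exons 1 to 4, and ringed points in the WT embryo are the 61 cytosines without a value in the BM embryo. Exon 4, at the right, averages 64.3% to 67.1% in embryos and 52.8% in ahESCs, 25.7% in phESCs and 55.7% in ESCs, while exon 2 averages 38.1% to 51.5% in embryos and 4.78% to 5.81% in these stem cells.

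The starts of Kcnq1ot1 and Cdkn1c lie 164501 bases apart. From 400 kb before the first window to 400 kb after the second, 71 tiles of 1 kb had a level. In early ahESCs against early diploid ESCs, the Kcnq1ot1 tile was the 1 tile of 48 called lower (2.08%), and the median difference of the tiles was 0.0627 points. It was also the 1 tile of 40 called higher in the BM embryo than in the WT embryo (2.5%), the 1 of 36 called higher in BM than in BP (2.78%) and the 1 of 38 called higher in the WT adult brain than in the WT embryo (2.63%), a comparison in which 3 other tiles were called lower (7.89%). In these comparisons the Cdkn1c tiles stayed below 25 points.

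Where methylation fell widely, the Kcnq1ot1 tile fell among many. In late against early diploid ESCs, 29 of 47 tiles were lower (61.7%), and in early phESCs against early diploid ESCs 25 of 47 were (53.2%). The tiles outside both windows kept a median of 22.4% in late ESCs (45 tiles) and 37.4% in early phESCs (42 tiles). The Kcnq1ot1 tile had 1.11% in late ESCs and 1.26% in early phESCs. A low level was not confined to it, since the lowest of the tiles outside both windows had 1.77% in late ESCs and 3.91% in early phESCs. In embryos the other tiles had medians of 64.2% in BM, 64.7% in BP and 56.7% in WT. Between the WT embryo and early diploid ESCs, 3 of 43 tiles were higher (6.98%): 2 at Cdkn1c and the tile at chr7:150649000-150649999, with 39.6% in the WT embryo and 6.65% in early ESCs. In the same comparison 4 tiles were lower (9.3%), none of them in the windows, and the Kcnq1ot1 tile, with 26.2% in the WT embryo and 50.6% in early ESCs, fell just short of 25 points. Over shared cytosines alone, the Cdkn1c tile over exons 1 and 2 had 34.2% in the WT embryo and 6.09% in early ESCs (+28.1 points). The tile that starts at 150645000 had 20.7% in the WT embryo and 2.05% in early ESCs (+18.7 points), below 25. Between the BM embryo and early phESCs, 24 of 42 tiles were higher (57.1%), the Kcnq1ot1 tile and all 4 Cdkn1c tiles among them.

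**Figure D4:**
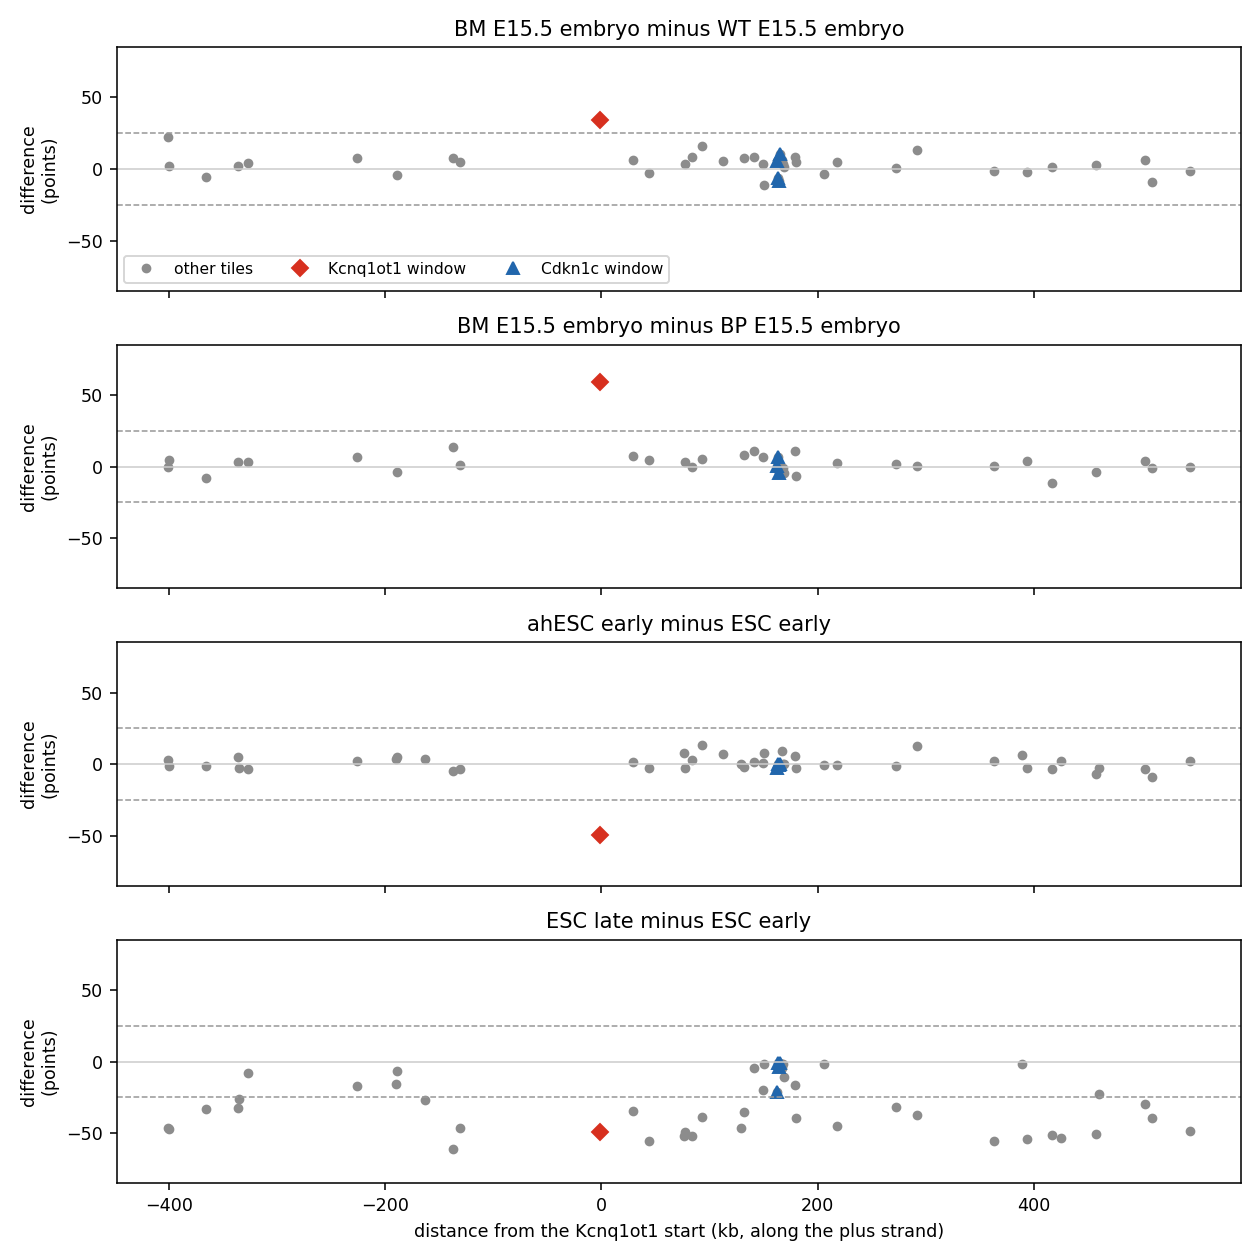
Difference in mean methylation (percentage points, y axis) of 1 kb tiles against distance from the Kcnq1ot1 start (kb, x axis) for 4 comparisons; the diamond is the Kcnq1ot1 tile, triangles are Cdkn1c tiles, grey points are other tiles, and dashed lines mark 25 points. The Kcnq1ot1 tile alone passes the lines in the top 3 panels (+34.5, +59.4 and -49.6 points), and it is 1 of 29 tiles below them in late minus early ESCs.

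Of 19 genes listed for the domain, 14 had a promoter that could be placed, and 7 of these had at least 5 measured cytosines in at least 1 library, Cdkn1c among them. The Kcnq1 promoter, on the far side of Kcnq1ot1, was measured in all 12 libraries and ran from 4.49% in late diploid ESCs to 24.0% in the BM E19.5 brain, without the high levels of the Kcnq1ot1 region. Ascl2, a trophoblast transcription factor, ran from 5.70% in late diploid ESCs to 27.0% in late ahESCs. Phlda2, which restrains placental growth, had 7.46% in BM and 10.7% in WT at E15.5. The Th promoter, of tyrosine hydroxylase, had 54.4% in late and 89.0% in early diploid ESCs and was the 1 of 6 promoters called lower there (16.7%). Slc22a18, a membrane transporter gene next to Cdkn1c, had 45.4% in the BM embryo and 10.8% in early phESCs. It and Cdkn1c were the 2 of 6 promoters called higher in that comparison (33.3%). The Cdkn1c promoter, with 29.9% in the WT embryo and 1.42% in early diploid ESCs, was also the 1 of 5 called higher between those libraries (20%). Tnfrsf23, a decoy receptor, ran from 4.95% to 15.1% in the 7 libraries that measured it.

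Among 21648 windows of 1500 bases measured in all 12 libraries, the 5 closest to the Kcnq1ot1 region by mean absolute difference were in or beside genes known to be imprinted in mouse, where they could be named. The closest, at chr18:13131000-13132499 between exons of Impact, differed by 3.18 points on average. Its levels included 56.3% in BM, 1.42% in BP and 28.0% in WT embryos. Next were a window between exons of Igf2r at chr17:12934500-12935999 (4.78 points), one over an exon of Grb10 at chr11:11925000-11926499 (4.78 points), one over exons of Commd1 and Zrsr1 at chr11:22872000-22873499 (5.21 points) and its neighbour at chr11:22870500-22871999 (5.31 points), which overlaps no placed exon. In these 4 the WT embryo had 56.5% to 66.0%, against 25.3% at Kcnq1ot1.

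For Cdkn1c, the 5 closest of 22608 windows of 4000 bases lay over exons of Mzf1 on chromosome 7 (1.98 points), of Pcdhga8 and Gm37165 on chromosome 18 (2.48 points), in a window of chromosome 19 with no placed exon (2.90 points), over exons of Zfpm1 and Gm45353 on chromosome 8 (3.02 points) and over Mkrn3 on chromosome 7 (3.07 points). All 5 were low in every stem cell library and at 23.8% to 45.5% in embryos and brains.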

How the data were processed

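The authors deposited a table of methylation percent, from 0 to 100, for each listed cytosine of 12 RRBS libraries, with N for no value. Per the submitters' processing notes it was made with Trim Galore and Bismark 0.13.1 on mm9. Per the labels, DNA was cut with MspI. The values carry no coverage, so no interval for counting error can be given, and no count was inferred.

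Window means used each library's own cytosines that reached 20% in any library. Calls needed 25 points, and background windows of equal length needed 5 cytosines in both libraries. Tiles of 1 kb needed 5 cytosines. Promoters ran from 1000 bp before to 500 bp after a start.

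Sequence came from GENCODE M21, placed where every listed position under a sequence was a C or G of CG or GC. The Kcnq1ot1 transcript matched at 1 start in the domain, with all 131 positions. All 101 exons and promoters with at least 8 listed positions matched at the same shift. When the shift was set wrong by 2017 bp, 0 of 45 matched. Cdkn1c exon 3 has 2 listed positions and was placed by that shift alone. No coordinate was converted.

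The members, lists, windows and tests were chosen with earlier results of these data known. Comparisons of 3 embryos with stem cells were added, as were the 2 alternatives that use 1 stretch only. Genes were named if they were members, placed genes of the domain list with at least 5 cytosines, or among the 5 windows most alike. The window comparison and the placement were tested on simulated data. Tables were computed in Python 3.11.15 with pandas 2.3.3, NumPy 2.4.6 and SciPy 1.17.1, and figures drawn with Matplotlib 3.10.9.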

Additional observations from a re-analysis of the deposited data

Results flagged for a closer look

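The late-minus-early passage difference at the Kcnq1ot1 region had opposite signs in the cell types, -49.5 points in diploid ESCs against +2.02 points in ahESCs and +3.32 points in phESCs. With 1 library each, this difference between cell types was not tested, and the haploid cells were already at 1.02% (ahESC) and 1.22% (phESC) at early passage. With the MspI ends left out, the differences were -49.7 points in diploid ESCs, +0.416 points in ahESCs and +4.10 points in phESCs. The haploid comparisons also cross the split in covered sites described above.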

How the results depend on the processing

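The 38 comparisons were recomputed under 13 alternatives, which gave 453 values. Of these, 414 kept their side of 25 points and moved by less than 10 points, 38 did not, and 1 called difference changed sign. The cause was not tested except where fewer or other cytosines enter by construction.

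With all listed cytosines, which adds unmethylated GpC positions, the Kcnq1ot1 differences shrank to -30.5 (late minus early ESC), -30.7 (early ahESC minus early ESC), -30.6 (early phESC minus early ESC), +23.0 (BM minus WT embryo), -13.8 (BP minus WT embryo), +36.8 (BM minus BP embryo), +16.0 (WT adult brain minus WT embryo), -16.8 (WT embryo minus early ESC) and +36.8 points (BM embryo minus early phESC), and the Cdkn1c differences to +17.9 (WT embryo minus early ESC), +15.9 (BM embryo minus early phESC) and +13.3 points (BP embryo minus early ahESC).

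With cytosines shared by both libraries, Kcnq1ot1 gave -34.0 (BP minus WT embryo) and -24.4 points (WT embryo minus early ESC), and Cdkn1c +6.45 (BM minus WT embryo), +1.48 (BP minus WT embryo) and +20.6 points (WT embryo minus early ESC). With those shared by all 12 libraries, Kcnq1ot1 gave -31.9 (BP minus WT embryo), +22.3 (WT adult brain minus WT embryo) and -16.7 points (WT embryo minus early ESC), and Cdkn1c +5.21 (BM minus WT embryo), +3.18 (BP minus WT embryo), +13.7 (WT adult brain minus WT embryo), +21.3 (WT embryo minus early ESC) and +25.2 points (BP embryo minus early ahESC).

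A cutoff of 10% gave +24.0 points for Kcnq1ot1 in WT adult brain minus WT embryo. A cutoff of 50% gave -24.4 points for Kcnq1ot1 in WT embryo minus early ESC, and for Cdkn1c -10.4 (WT adult brain minus WT embryo), +45.2 (WT embryo minus early ESC) and +33.6 points (BP embryo minus early ahESC), for which the median over cytosines gave +26.0 points.

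Added after seeing the data, the 69-base stretch alone gave Kcnq1ot1 differences of +7.44 (BM minus WT embryo), -50.0 (BP minus WT embryo), -2.55 (WT adult brain minus WT embryo, the change of sign) and -0.0859 points (WT embryo minus early ESC). The 150-base stretch alone gave +49.3, -11.7, +45.9 and -37.9 points in the same order.

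No paired analysis was possible because each group has 1 library. The unknown read depth limits every value, and strands of the same CpGs differed by up to 23.2 points on average at Kcnq1ot1 and 17.3 points at Cdkn1c, both in the BM adult brain. Averaging both strands gave no value for 3 comparisons.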
